A study of Mus musculus with 9 samples.

Results

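The 9 genes described here, Myoc, Angptl7, Efemp1, Cav1, Cav2, Abca1, Cyp1b1, Optn and Tmco1, are known for their links to glaucoma or to the drainage of aqueous humour. They were chosen by gene symbol from the 18349 genes listed for each iris library, and all 9 were among the 15010 genes with enough counts to be tested. Aqueous humour leaves the eye through the trabecular meshwork and Schlemm's canal, which lie in the angle between the cornea and the root of the iris. Resistance in this pathway sets the intraocular pressure, and a raised pressure damages retinal ganglion cells in glaucoma. Variants of MYOC, CYP1B1 and OPTN, among others, are known from families with glaucoma, and most of the other genes from studies of intraocular pressure or glaucoma in populations. The tissue sequenced was the iris, which borders the outflow tissue, and the outer edge of the iris had been trimmed away.

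The mice formed 3 groups that were compared, with 3 libraries in each group and 3 irises of 1 genotype pooled per library. Sham VEGFR3 fl/fl mice (Sham) received PBS on the cornea at 6 weeks of age. VEGFR3 fl/fl mice with corneal alkali injury (injured fl/fl) had the cornea exposed at the same age to sodium hydroxide, 0.5 μL at 1 M, for 60 seconds. VEGFR3 iLECko mice (injured iLECko) received the same injury and carried, besides the floxed VEGFR3 alleles that all groups shared, a tamoxifen-inducible Cre under Prox1, a gene of lymphatic endothelium that some other cells also use. Tamoxifen was given intraperitoneally at 80 mg/kg on days 13 to 17 after injury, and irises were collected at 10 weeks of age, 28 days after injury. A sham-treated VEGFR3 iLECko group was not analysed here, so that the deletion could be compared only among injured irises. In pooled tissue of this kind, fewer cells of a type and less RNA per cell cannot be told apart.

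Libraries held between 16617187 and 18306359 counts. Values below are in CPM, counts scaled to library size, on the TMM scale, which also corrects for composition. DEGs had an adjusted p under 0.05 by edgeR's quasi-likelihood test and a change of more than 1.5-fold. Counts of Flt4, the gene of VEGFR3, were 277, 353 and 400 in the injured fl/fl libraries and 478, 370 and 476 in the injured iLECko libraries, and gene-level counts do not show whether the floxed part was lost. In the labels of the injured iLECko libraries the title gives the VEGFR3 genotype as VR3ko, while the genotype tag of 2 of the 3 gives Vegfr4 or Vegfr5. The genotype tag of the other 6 libraries is WT, and their fl/fl genotype was taken from the paper. Summed Y-linked expression was 51.1 to 167 CPM in the Sham libraries and 136 and 151 CPM in replicates 2 and 1 of the injured fl/fl group, but 0.804 CPM in its replicate 3 and 0.736 to 1.11 CPM in all 3 injured iLECko libraries. Genotype and this difference in Y-linked expression therefore largely coincide. Replicate 1 of the injured fl/fl group stood apart from replicates 2 and 3 of that group, with a chi-square per degree of freedom of 76.2 and 67.4 against 26.7 between those replicates. Markers of iris pigment cells fell after injury, 7 of 7 being downregulated DEGs, as were 17.5% of all genes. Their sums were 27660 to 29610 CPM in Sham and 3371 to 5810 CPM in injured fl/fl irises. Macrophage markers rose, 10 of 10 being upregulated DEGs (22.1% of all genes were), from sums of 376 to 388 CPM to 3305 to 3660 CPM. The part of these shifts in the results below was not tested.

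Injury was accompanied by a lower level of Optn and higher levels of Cav1 and Abca1 in both injured groups. Of the 9 genes, 5 were DEGs between injured fl/fl and Sham irises, where 39.7% of all tested genes were DEGs. Cav1, Abca1 and Angptl7 were upregulated (22.1% of all genes were) and Optn and Efemp1 were downregulated (17.5% of all genes were), the call of Angptl7 resting on 1 library. Between injured iLECko and Sham irises 4 of the 9 were DEGs, against 34.8% of all genes: Cav1, Cav2 and Abca1 were higher (19.7% of all genes were) and Optn was lower (15.0% of all genes were). Without replicate 1 of the injured fl/fl group the counts were 4 (Angptl7 lost) and 6 (Myoc and Angptl7 gained), against 39.1% and 35.8% of all genes in that fit. By adjusted p alone, 7 and 5 of the 9 passed, against 60.0% and 54.5% of all genes. The groups did not overlap for 6 of the 9 in each of these comparisons, as for 66.3% and 66.5% of all genes. Both comparisons share the Sham libraries, so their values are given side by side. Between the injured groups, 0 of the 9 were DEGs by edgeR, against 1.04% of all genes. By edgeR 3 of the 9, Myoc, Angptl7 and Efemp1, had an unadjusted p under 0.05 there, as 24.5% of all genes did. DESeq2, the tool that the paper used, called 2 of the 8 to which it gave an adjusted p, Efemp1 and Myoc, against 4.53% of all genes. By the adjusted p of edgeR alone 0 passed, against 1.56% of all genes, and only Efemp1 had groups that did not overlap, as did 26.7% of all genes.

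**Figure D1:**
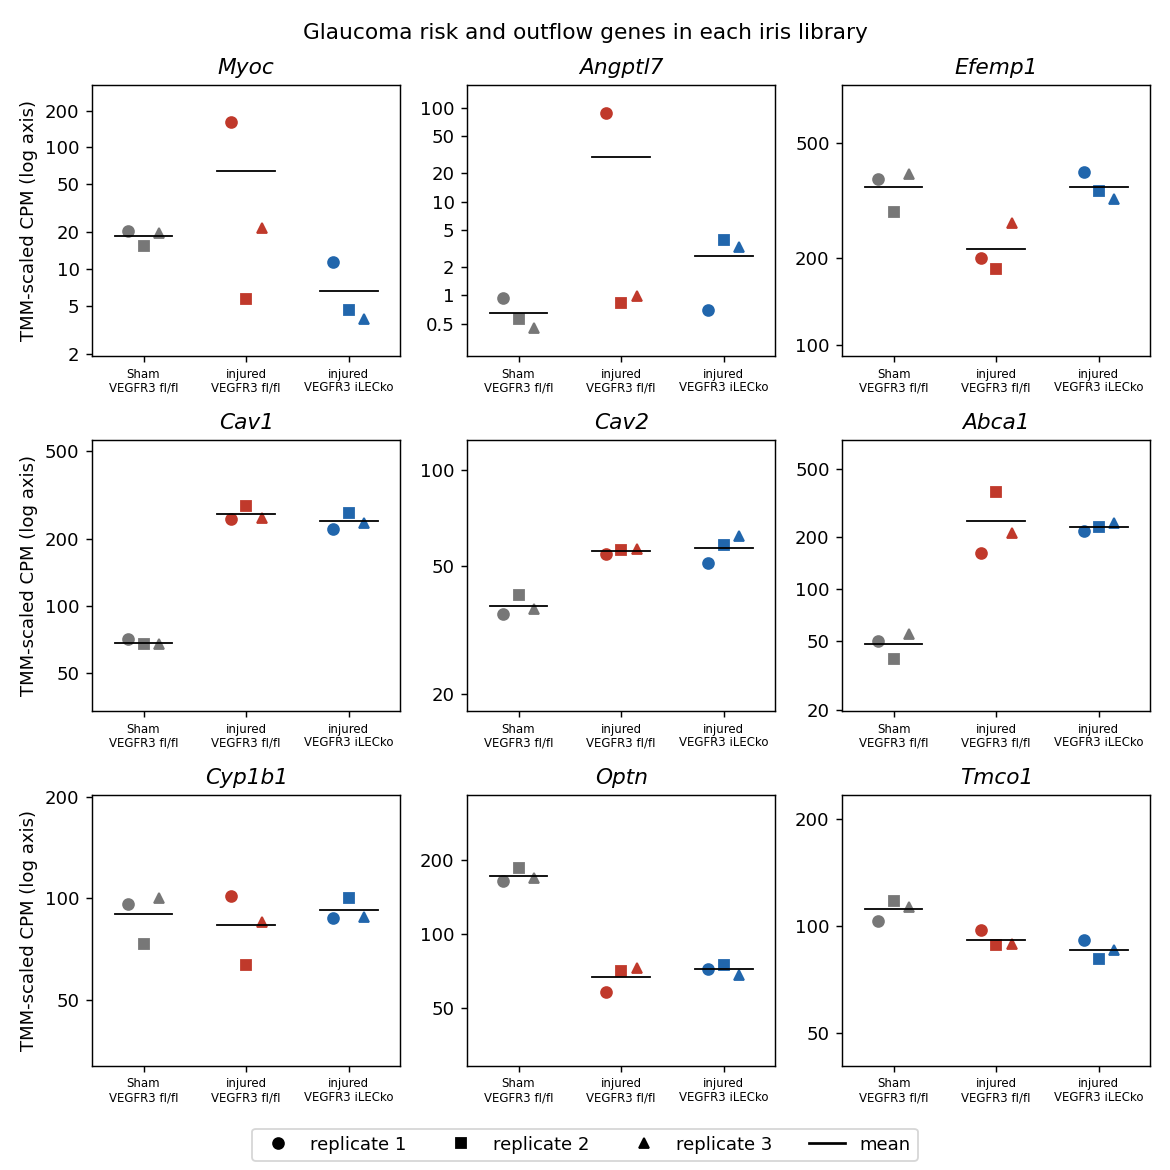
TMM-scaled CPM (log axis) of each of the 9 genes in the 9 iris libraries, by group, with marker shapes for replicate numbers and a line at each group mean. Cav1, Abca1 and Optn separate both injured groups from Sham, whereas the means of Myoc and Angptl7 in the injured fl/fl group are set by replicate 1, at 163 and 87.5 CPM.

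**Figure D2:**
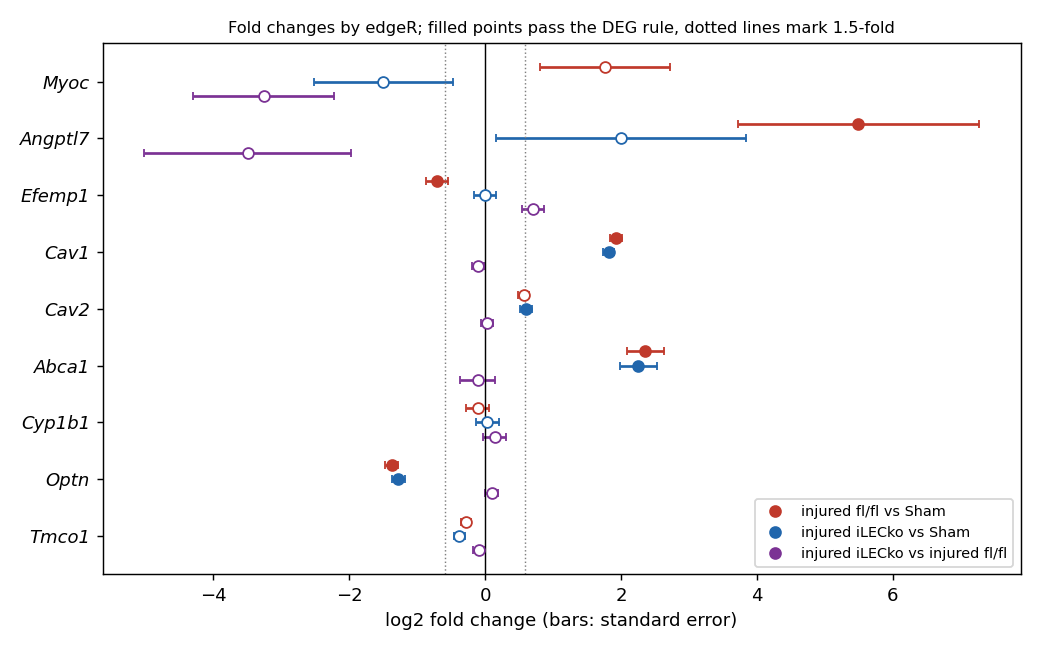
log2 fold changes (x axis) of the 9 genes in 3 comparisons, with bars for the standard error, filled points for DEGs and dotted lines at 1.5-fold. Myoc and Angptl7 have standard errors of 0.95 to 1.84, and Cav1 and Optn of at most 0.10.

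Between genes, levels were compared as approximate TPM, in which counts are divided by transcript length and scaled to the library. Efemp1 had the highest level of the 9 in Sham irises, 496 ± 93.7 TPM (SD, n = 3), above 98.2% of the tested genes with a length. Optn followed at 189 ± 4.66 TPM, then Tmco1 at 80.3 ± 2.43, Cav1 at 71.3 ± 4.71, Cyp1b1 at 50.4 ± 9.76, Cav2 at 39.4 ± 1.27, Myoc at 25.8 ± 4.78, Abca1 at 13.5 ± 2.58 and Angptl7 at 0.871 ± 0.372 TPM. Ranges of neighbours in this order overlapped only for Cyp1b1 and Cav2. In injured fl/fl irises Efemp1 (248 ± 60.0 TPM) and Cav1 (221 ± 29.1 TPM) led and their ranges overlapped. Myoc (66.3 ± 87.4 TPM) and Angptl7 (29.4 ± 49.1 TPM) had ranges that took in those of several other genes. Optn (60.1 ± 11.5), Abca1 (57.0 ± 27.2) and Tmco1 (53.7 ± 1.30 TPM) also overlapped there. In injured iLECko irises Efemp1 led at 447 ± 40.5 TPM, above Cav1 at 228 ± 26.6 and Optn at 70.9 ± 4.79 TPM, with no overlap between these neighbours. With the median in place of the longest transcript length, the Sham level of Cav1 was 173 TPM and that of Optn 90.0 TPM, so this order depends on the length used.

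Among the secreted proteins, Myoc encodes myocilin, an olfactomedin-domain glycoprotein made in quantity by the trabecular meshwork and also by iris and ciliary body. The gene (NCBI Gene 17926) lies at chr1:162639150-162649694 on the plus strand (GRCm38.p6). It shares 93 exon bases with Myocos on the opposite strand, and since the use of strand in counting is not given, reads of the pair may not have been told apart. In Sham libraries Myoc lay at 20.7, 15.5 and 19.8 CPM. In injured fl/fl libraries it lay at 163, 5.62 and 21.8 CPM, and in injured iLECko libraries at 11.4, 4.64 and 3.86 CPM. One injured fl/fl library was thus far above every other library and another far below Sham, and these groups overlapped, while every injured iLECko library was below every Sham library. The log2 fold change of injured fl/fl against Sham was 1.76 (SE 0.95, adjusted p = 0.139), and without replicate 1 of that group it was -0.45 (adjusted p = 0.514). Injured iLECko irises differed from injured fl/fl by a log2 value of -3.26 (SE 1.04, adjusted p = 0.114) and from Sham by -1.49 (SE 1.02, adjusted p = 0.242). The difference from Sham passed the test once replicate 1 of the injured fl/fl group was left out of the estimate of spread (-1.49, adjusted p = 0.0334).

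Angptl7 encodes a secreted angiopoietin-like protein of cornea, sclera and trabecular meshwork, and loss-of-function variants of the human gene are known for lower intraocular pressure. The gene (NCBI Gene 654812) lies at chr4:148495181-148500462 on the minus strand (GRCm38.p6), inside Mtor on the opposite strand, without shared exon bases. Counts were few, 17, 10 and 8 in the Sham libraries, which is 0.942, 0.565 and 0.451 CPM. Injured fl/fl libraries held 1442, 14 and 17 counts (87.5, 0.820 and 0.976 CPM), and injured iLECko libraries 12, 69 and 57 counts (0.701, 3.91 and 3.28 CPM). The high value was again that of replicate 1 of the injured fl/fl group, and the other libraries of that group overlapped with Sham. By edgeR Angptl7 was an upregulated DEG in injured fl/fl irises (log2 fold change 5.49, SE 1.78, adjusted p = 0.0237), but without replicate 1 of that group the value was 0.45 (adjusted p = 0.603), and without Sham replicate 1, 2 or 3 the adjusted p was 0.0657, 0.0733 or 0.0771. Injured iLECko irises differed from Sham by a log2 value of 2.0 (SE 1.84, adjusted p = 0.384), with 2 of 3 libraries above every Sham library. Without replicate 1 of the injured fl/fl group this log2 value was 2.0 with an adjusted p of 0.0178, and the difference between the injured groups changed from -3.49 (SE 1.52, adjusted p = 0.199) to 1.55 (adjusted p = 0.276).

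Myoc and Angptl7 were thus high together in 1 library. By excess over the higher of the other injured fl/fl libraries, Angptl7 ranked 2 and Myoc 22 of 15010 genes in that replicate. In order, the 14 highest genes were Bpifb1, Angptl7, Cilp2, Gpha2, Mmp3, Chad, Chil1, Ccl21a, Col6a5, Tnmd, Comp, Cyp2f2, Aldh3a1 and Jchain. Among them, the cartilage-type matrix genes Cilp2, Chad and Comp were at 103, 77.4 and 262 CPM. Mmp3, a matrix metalloproteinase, was at 214 CPM, Bpifb1 at 780 CPM, Ccl21a at 92.4 CPM and Jchain at 32.0 CPM. Over the 9 libraries the profile most like that of Myoc was that of Ptgis, the prostacyclin synthase, with a root-mean-square difference of 0.37 on the log2(CPM + 1) scale, followed by Aldh3a1, a detoxifying dehydrogenase abundant in cornea, with 0.47. For Angptl7 the nearest were Gpha2, a glycoprotein hormone subunit, with 0.61 and Cyp2f2, a cytochrome P450, with 0.72. These genes share the same libraries, and the likeness rests on the same replicate 1. Of 6 markers of corneal keratocytes, 4 were highest in that replicate among the injured fl/fl libraries, Kera among them at only 3 counts. Lum, the lumican gene, was at 1929 CPM there against 382 and 636 CPM in replicates 2 and 3, Thbs4 at 51.8 against 2.05 and 6.60 CPM, and Aldh3a1 at 117 against 1.93 and 10.2 CPM. Ptgds and Cd34 were lower there than in both other replicates, and Kera, which defines these cells, had at most 3 counts in any library. The sum of the list was 5134 CPM against 3955 and 5147 CPM, of which Ptgds held 2898 CPM against 3384 and 4306 CPM. Krt12 of the corneal epithelium had at most 31 counts, with 3 in that replicate. The sum of 3 corneal endothelium markers was 1647 CPM in that replicate against 768 and 1065 CPM in the other injured fl/fl libraries. In that replicate Col8a2 held 1224 CPM and Col8a1 416 CPM of the sum. Slc4a11 of that list was at 8.19, 6.44 and 4.54 CPM in injured fl/fl libraries, below its 22.6 to 53.1 CPM in Sham. The part of neighbouring tissue in the Myoc and Angptl7 values was not tested.

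Promoters of this pair are shown because both genes were highest in the same library, although against Sham their log2 fold changes in injured iLECko irises had opposite signs (-1.49 for Myoc and 2.0 for Angptl7). Each stretch is the 250 bases before the start site (RefSeq, GRCm38.p6), read 5′ to 3′ on the strand of the gene, with capitals for matches to any of 7 motifs. They were searched on both strands: the TATA box (TATAAA), the CCAAT box (CCAAT), the GC box (GGGCGG), the AP-1 element (TGANTCA), the dioxin-response core (GCGTG), the nuclear receptor half-site (AGGTCA) and the glucocorticoid half-site (TGTTCT).
Myoc, chr1:162638900-162639149, plus strand: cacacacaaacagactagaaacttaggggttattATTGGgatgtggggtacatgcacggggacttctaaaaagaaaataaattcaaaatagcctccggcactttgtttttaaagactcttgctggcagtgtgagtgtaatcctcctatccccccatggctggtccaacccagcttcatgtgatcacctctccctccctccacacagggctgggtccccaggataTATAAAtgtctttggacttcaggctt
Angptl7, chr4:148500463-148500712, minus strand: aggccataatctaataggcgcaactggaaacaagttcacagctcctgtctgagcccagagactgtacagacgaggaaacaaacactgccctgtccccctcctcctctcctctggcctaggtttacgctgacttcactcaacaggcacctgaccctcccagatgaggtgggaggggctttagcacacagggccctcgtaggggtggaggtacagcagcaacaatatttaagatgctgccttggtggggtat
Myoc held a TATA box 26 bases and a CCAAT box 216 bases before its start, and 12.4% and 33.8% of the 32851 promoters searched held these letters. None of the 7 motifs was found in the Angptl7 stretch, which says only that these letters are not in this window.

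**Figure D3:**
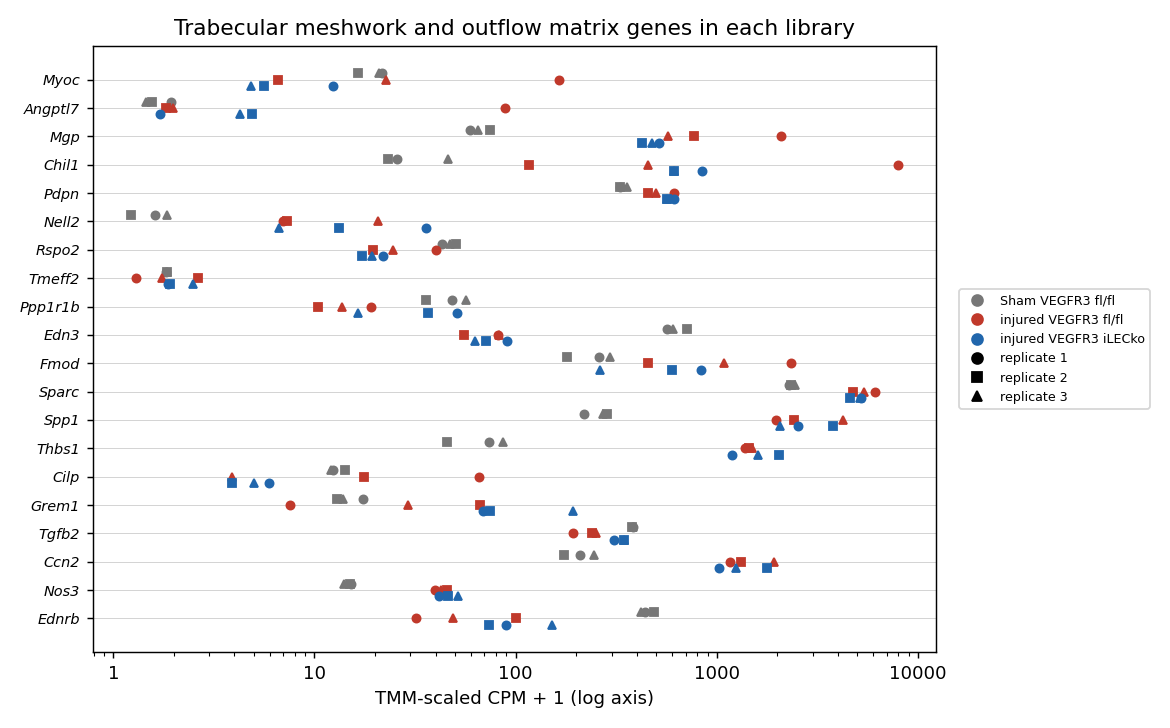
TMM-scaled CPM + 1 (log axis) of 20 genes of trabecular meshwork and outflow matrix in each library, with colours for groups and shapes for replicates. Replicate 1 of the injured fl/fl group is the highest library for Myoc, Angptl7, Mgp and Chil1, whereas Thbs1 is higher in every injured library than in every Sham library.

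Efemp1 encodes fibulin-3, a secreted matrix glycoprotein (NCBI Gene 216616, chr11:28853154-28926743, plus strand, GRCm38.p6). It was lower in injured fl/fl irises and at the Sham level in injured iLECko irises. Sham libraries were at 376, 288 and 391 CPM, injured fl/fl libraries at 200, 183 and 264 CPM, and injured iLECko libraries at 397, 341 and 320 CPM. Every injured fl/fl library was below every library of both other groups. The fall against Sham was a log2 fold change of -0.71 (SE 0.16, adjusted p = 0.00480), and it was called under all 18 alternative fits. The difference of injured iLECko from injured fl/fl irises was 0.71 (SE 0.16) with an adjusted p of 0.0621 by edgeR, which missed the threshold, and of 0.00129 by DESeq2, which passed it. The groups did not overlap. With Y-linked expression as a covariate the difference was 0.46 (adjusted p = 0.552). Replicate 3, the only injured fl/fl library with little Y-linked expression, was at 264 CPM for Efemp1, the highest of its group. Genotype and Y-linked expression largely coincide, so their parts in this difference cannot be told apart. Injured iLECko and Sham irises differed by a log2 value of 0.0043 (SE 0.16, adjusted p = 0.984). Profiles nearest to Efemp1 were those of Per1, a clock gene induced by glucocorticoids, and Cep126, a centrosomal protein gene, each with a root-mean-square difference of 0.13. Ciliary epithelium markers summed to 562 to 648 CPM in Sham, 112 to 207 in injured fl/fl and 305 to 325.5 in injured iLECko libraries. Of the 6 tested, 4 were higher and 2 lower in injured iLECko than in injured fl/fl irises. Otx1, Col9a1, Zic1 and Zic2 held nearly all of the ciliary sums. Atp6v1c2 of that list had only 3 to 27 counts per library and Cacna1e 19 to 33 counts. The paper reports both of these genes as undetectable and took that as a check against ciliary body tissue in the samples. Retina markers summed to 104 to 867, 16.0 to 544.5 and 24.5 to 566 CPM in these groups. The part of such neighbouring tissue in the Efemp1 values was not tested.

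Cav1 and Cav2 encode caveolins, the membrane proteins of caveolae, which are abundant in endothelium, smooth muscle and the outflow tissue. Caveolin-2 reaches the cell surface in complex with caveolin-1. Both genes rose after injury, Cav1 by much more than Cav2. Cav1 was at 70.7, 67.2 and 67.4 CPM in Sham, at 247, 282 and 250 CPM in injured fl/fl and at 224, 264 and 236 CPM in injured iLECko libraries. The injured groups overlapped each other and lay far above Sham, with log2 fold changes of 1.92 (SE 0.088, adjusted p = 3.05e-07) and 1.82 (SE 0.088, adjusted p = 6.04e-07). Between them the difference was -0.11 (SE 0.084, adjusted p = 0.454).

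Cav2 was at 35.5, 40.7 and 36.9 CPM in Sham, at 54.5, 56.4 and 56.6 CPM in injured fl/fl and at 51.1, 58.1 and 62.0 CPM in injured iLECko libraries. Every injured library was above every Sham library. The log2 fold change was 0.57 in injured fl/fl irises (SE 0.086, adjusted p = 0.000403), under the 1.5-fold limit, and 0.60 in injured iLECko irises (SE 0.086, adjusted p = 0.000368), just over it, so the different calls do not show that the groups differ. Between the injured groups the value was 0.031 (SE 0.085, adjusted p = 0.848).

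Within each library, Cav2 had 50.2, 60.6 and 54.8 counts per 100 Cav1 counts in Sham, 22.1, 20.0 and 22.6 in injured fl/fl and 22.8, 22.1 and 26.2 in injured iLECko irises. The ratio is independent of the scaling between libraries, and no injured library reached the Sham range. Means were 55.2 ± 5.25, 21.6 ± 1.38 and 23.7 ± 2.23 (SD, n = 3). An exact two-sided permutation test gave p = 0.1 for each injured group against Sham, the smallest p that 3 libraries against 3 allow, and p = 0.3 between the injured groups (0.15, 0.15 and 0.3 after Benjamini-Hochberg adjustment over the 3 comparisons). Summed blood endothelial markers moved with both genes, from 602 to 634 CPM in Sham to 1611 to 1712 CPM in injured fl/fl and 1475 to 1660 CPM in injured iLECko libraries, and smooth muscle markers moved the other way, from 7919 to 10210 CPM to 1639 to 3367 CPM and 2382 to 3781 CPM. Of the 8 endothelial markers, 6 and then 7 were upregulated DEGs against Sham, as were 22.1% and 19.7% of all genes. Cldn5 went the other way, a downregulated DEG in both injured groups, at 95.5 to 136 CPM in Sham and 44.3 to 78.0 CPM in the injured libraries. The part of both marker sets in the caveolin values was not tested.

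**Figure D4:**
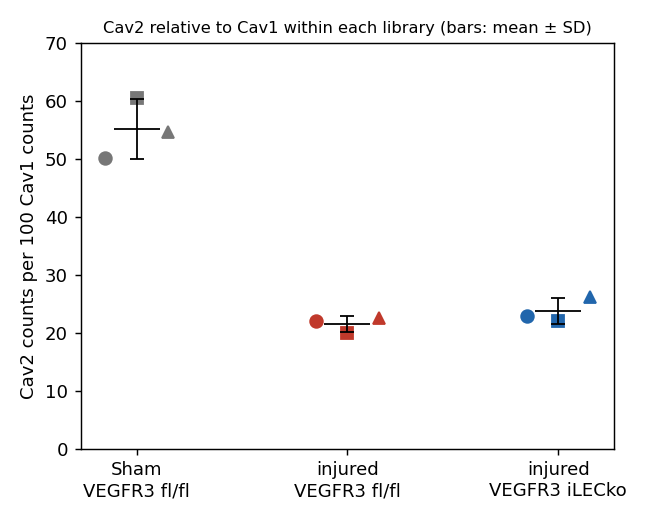
Cav2 counts per 100 Cav1 counts (y axis, from 0) in each library by group, with marker shapes for replicates and black bars for the mean ± SD. The Sham libraries lie between 50.2 and 60.6 and all 6 injured libraries between 20.0 and 26.2.

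The caveolin promoters are printed because these neighbours changed unequally: Cav2 (NCBI Gene 12390, chr6:17281185-17289130) and Cav1 (NCBI Gene 12389, chr6:17306335-17341328) lie on the plus strand with 17.2 kb between them. Capitals mark the same 7 motifs as above.
Cav1, chr6:17306085-17306334, plus strand: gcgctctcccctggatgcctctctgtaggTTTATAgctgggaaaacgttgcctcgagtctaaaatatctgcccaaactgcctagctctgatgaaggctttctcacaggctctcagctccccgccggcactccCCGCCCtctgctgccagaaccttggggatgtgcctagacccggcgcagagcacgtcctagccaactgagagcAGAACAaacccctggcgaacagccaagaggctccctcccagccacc
Cav2, chr6:17280935-17281184, plus strand: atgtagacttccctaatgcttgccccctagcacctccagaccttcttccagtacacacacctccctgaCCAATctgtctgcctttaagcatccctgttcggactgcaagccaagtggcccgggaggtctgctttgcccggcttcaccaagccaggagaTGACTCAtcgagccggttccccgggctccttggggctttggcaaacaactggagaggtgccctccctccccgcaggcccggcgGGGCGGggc
The Cav1 stretch held a GC box 118 bases, a glucocorticoid half-site 46 bases and the letters of a TATA box 221 bases before the start, all on the opposite strand. RefSeq gives Cav1 another start, and the stretch before it (chr6:17307390-17307639) held none of the 7 motifs. The Cav2 stretch held a CCAAT box 182 bases, an AP-1 element 92 bases and a GC box 9 bases before the start. AP-1 letters stood in 6.75%, glucocorticoid half-site letters in 16.1% and GC box letters in 32.7% of all promoters searched.

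Abca1 encodes the membrane transporter that moves cholesterol and phospholipid from cells to apolipoproteins (NCBI Gene 11303, chr4:53030789-53159988, minus strand, GRCm38.p6). It rose in both injured groups. Sham libraries were at 50.3, 39.4 and 54.7 CPM, injured fl/fl libraries at 162, 367 and 212 CPM and injured iLECko libraries at 218, 230 and 242 CPM. The injured fl/fl libraries spread widely around the narrow range of the injured iLECko libraries, and none came near Sham. The log2 fold changes against Sham were 2.36 (SE 0.27, adjusted p = 7.41e-05) and 2.26 (SE 0.27, adjusted p = 0.000126), and that between the injured groups was -0.10 (SE 0.26, adjusted p = 0.831). The nearest profiles were those of Col4a2, a chain of basement membrane collagen, with a root-mean-square difference of 0.20 and Mcam, an adhesion molecule of endothelium and mural cells, with 0.22. Macrophages use ABCA1 for cholesterol efflux. Their markers summed to at most 388 CPM in Sham, at least 3305 CPM in injured fl/fl and 2109 to 2349 CPM in injured iLECko libraries. Between the injured groups, 6 of the 10 markers were downregulated DEGs in iLECko irises, as were 0.466% of all genes. Itgam was higher, at 82.1 to 128 CPM in injured fl/fl and 98.0 to 156 CPM in injured iLECko libraries. The part of macrophages in the Abca1 values was not tested.

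Optn encodes optineurin, an autophagy receptor and adaptor of vesicle transport (NCBI Gene 71648, chr2:5020521-5064399, minus strand, GRCm38.p6). It fell in both injured groups. Sham libraries were at 165, 186 and 169 CPM, injured fl/fl libraries at 57.8, 70.4 and 72.7 CPM and injured iLECko libraries at 71.9, 74.8 and 68.2 CPM. The injured groups overlapped, and their highest library was below 75 CPM. The log2 fold changes against Sham were -1.37 (SE 0.097, adjusted p = 3.72e-06) and -1.27 (SE 0.097, adjusted p = 7.67e-06), and that between the injured groups was 0.097 (SE 0.096, adjusted p = 0.554). Ephx2, the soluble epoxide hydrolase, and Tspan9, a tetraspanin, had the nearest profiles, with root-mean-square differences of 0.066 and 0.082. Pigment cell markers moved the same way as Optn, and their part in the Optn values was not tested. The gene shares 73 exon bases with an antisense transcript, 4930551O13Rik, and whether counting used strand is not given in the sources used here.

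Tmco1 encodes an endoplasmic reticulum protein first described as a calcium leak channel and also part of a translocon for multipass membrane proteins (NCBI Gene 68944, chr1:167308670-167333978, plus strand, GRCm38.p6). It was slightly lower after injury, at 104, 117 and 113 CPM in Sham, 97.7, 88.3 and 88.9 CPM in injured fl/fl and 91.1, 80.7 and 85.8 CPM in injured iLECko libraries. No injured library reached the Sham range. The log2 fold changes of -0.28 (SE 0.078, adjusted p = 0.0113) and -0.38 (SE 0.078, adjusted p = 0.00288) passed the adjusted p but not the 1.5-fold limit, and the injured groups differed by -0.094 (SE 0.078, adjusted p = 0.476). Its profile was closest to those of Mff, a mitochondrial fission factor, at 0.036 and Derl1, a component of protein degradation at the endoplasmic reticulum, at 0.043.

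Cyp1b1 encodes a cytochrome P450 that oxidises steroids, retinoids and xenobiotics and is a cause of primary congenital glaucoma when lost (NCBI Gene 13078, chr17:79706940-79715061, minus strand, GRCm38.p6). No change was detected. Its levels were 96.4, 73.2 and 100.1 CPM in Sham, 102, 63.6 and 85.0 CPM in injured fl/fl and 87.6, 100.4 and 88.2 CPM in injured iLECko libraries. All groups overlapped. The log2 fold changes were -0.11 (SE 0.17, adjusted p = 0.609) and 0.034 (SE 0.17, adjusted p = 0.880) against Sham and 0.14 (SE 0.17, adjusted p = 0.632) between the injured groups. Setbp1, a nuclear protein gene, and Cep128, a centriolar protein gene, had the nearest profiles, at 0.086 and 0.10.

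Around these genes, 11 lists of relatives and pathway partners held 143 further genes, of which 139 were tested. The lists were chosen with earlier results of these data known, so a share above that of all genes is no test of them. In injured fl/fl against Sham irises, 46 of the 139 rose and 35 fell, 58.3% against 39.7% of all genes. In injured iLECko against Sham irises 45 rose and 24 fell, 49.6% against 34.8%. Between the injured groups 0 were DEGs by edgeR, 49 had an unadjusted p under 0.05 (35.3%, against 24.5% of all genes) and DESeq2 called 15 of the 134 to which it gave an adjusted p, 9 of them higher, against 4.53% of all genes. Pax6 and Tgfb2 passed the adjusted p by edgeR there, at log2 values of 0.52 (adjusted p = 0.0399) and 0.55 (adjusted p = 0.0421), under the 1.5-fold limit. The following log2 fold changes are those of injured fl/fl against Sham irises, then of injured iLECko against Sham irises, with medians of all genes of 0.010 and -0.010. Beside the counts of each list below, 22.1% of all genes were upregulated and 17.5% downregulated DEGs in the first comparison. In the second, 19.7% and 15.0% were. A value given for 1 comparison alone reflects how genes were named, and the gene may have changed in the other too.

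Of the 9 olfactomedin family genes, Myoc included, 2 rose and 3 fell in the first comparison and 2 rose and 2 fell in the second (medians 0.062 and 0.096). Olfml3, a secreted matrix protein gene, rose by 3.37 and 3.12, with libraries of 35.5 to 37.7 CPM in Sham, 298 to 452 CPM in injured fl/fl and 274 to 354 CPM in injured iLECko irises. Olfml2b rose by 2.42 and 2.69, and Olfm3 fell by 4.42 and 2.65, on the log2 scale. In the angiopoietin-like family, 5 of 6 genes were tested, Angptl7 included, and 2 rose and 2 fell, then 0 rose and 1 fell (medians -0.38 and -0.47). Angptl1 fell by 1.02 and 2.15 on the log2 scale. Angptl4, an inhibitor of lipoprotein lipase, rose by 0.73 in the first comparison.

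Of the 19 fibulins and elastic fibre genes, Efemp1 included, 9 rose and 3 fell, then 9 rose and 1 fell (medians 0.66 and 0.62). Among all genes, 22.1% rose and 17.5% fell, then 19.7% rose and 15.0% fell. Lox, the lysyl oxidase that cross-links elastin and collagen, rose by 4.85 and 5.40, from 12.7 to 17.6 CPM in Sham to 271 to 601 CPM and 616 to 754 CPM. Fbln2, a fibulin like Efemp1, rose by 3.14 and 3.84. Another fibulin, Fbln1, fell by 0.88 on the log2 scale in the first comparison, and Fbn2, a microfibril protein gene, fell by 1.46 and 0.68. Efemp1 was therefore among the few of its list that were lower in injured fl/fl irises, 4 of 19.

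Caveolae genes moved unequally, 2 of 10 rising and 4 falling, then 3 rising and 3 falling (medians 0.32 and 0.22). The shares of all genes were 22.1% and 17.5%, then 19.7% and 15.0%. Beside Cav1, Cavin3 rose by 0.90 in the first comparison, whereas Cavin2, which shapes endothelial caveolae, fell by 1.00 and 0.80 and Pacsin3, a membrane-bending protein gene, by 0.76 and 0.75 on the log2 scale. Cavin1, which caveolae need to form, was at 0.30 (adjusted p = 0.0488), under the 1.5-fold limit, and 0.073 (adjusted p = 0.621). In the list of cholesterol efflux genes and targets of the liver X receptor, 4 of 10 rose and 1 fell in both comparisons (medians 0.28 and 0.23). Abcg1, the transporter that acts beside ABCA1, rose by 4.27 and 3.54, from 7.23 to 11.7 CPM to 138 to 218 CPM and 92.3 to 138 CPM. Scd1, a fatty acid desaturase and target of the same receptor, fell by 1.22 and 0.83 on the log2 scale.

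Of the aryl hydrocarbon receptor pathway, to which Cyp1b1 belongs, 7 of 9 genes were tested, and 1 rose and 2 fell, then 2 rose and 2 fell (medians -0.039 and 0.034). For this and the next 2 lists, the shares of all genes were 22.1% rising and 17.5% falling, then 19.7% and 15.0%. Ahr, the receptor, rose by 1.95 and 1.58, while Nqo1, a quinone reductase, fell by 1.75 and 1.70 and Ahrr, the repressor of the receptor, by 1.00 and 1.38 on the log2 scale. Of the 17 autophagy receptors and optineurin partners, 2 rose and 3 fell, then 1 rose and 4 fell (medians -0.075 and -0.055). Myo6, the motor that binds optineurin, fell by 1.02 and 0.73 on the log2 scale, and Ripk1, a kinase of tumour necrosis factor signalling, rose by 0.96 and 0.94. Among 9 genes of the TMCO1 translocon, 3 rose and 1 fell, then 3 rose and 0 fell (medians 0.20 and -0.14). The risers were the Sec61 subunit genes Sec61g (0.97 and 0.75), Sec61b (0.81 and 0.69) and Sec61a1 (0.69 and 0.61), and Ccdc47 fell by 0.65 on the log2 scale in the first comparison.

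Glucocorticoids induce MYOC in the trabecular meshwork, and of 14 genes of the glucocorticoid response 5 rose and 6 fell, then 5 rose and 4 fell (medians -0.028 and -0.077). The members with the largest changes were Lcn2 (3.57 and 4.43) and Serpina3n (3.47 and 3.99), both also acute-phase genes, whereas Klf9 fell by 1.12 and 0.98 and Mt1, a metallothionein gene, by 1.07 and 1.01 on the log2 scale. Of 20 trabecular meshwork and outflow matrix genes, Myoc and Angptl7 included, 11 rose and 5 fell, then 10 rose and 3 fell (medians 1.45 and 1.15). Both lists stand beside 22.1% of all genes rising and 17.5% falling, then 19.7% and 15.0%. Chil1, a secreted chitinase-like protein gene, rose by 6.53 in the first comparison, with 22.1 to 45.3 CPM in Sham and 7939, 115 and 452 CPM in injured fl/fl libraries, the highest again in replicate 1. Thbs1, the gene of thrombospondin-1, rose by 4.57 and Nell2 by 4.95 in the second comparison. Each of these genes was above every Sham library in both injured groups. Chil1 was at 846, 609 and 609 CPM in injured iLECko libraries. Thbs1 was at 44.5 to 85.2 CPM in Sham and 1378 to 1498 CPM in injured fl/fl libraries, and Nell2 at 0.226 to 0.845 CPM and 6.01 to 19.7 CPM. Edn3, the endothelin-3 gene, fell by 3.12 and 3.09, and Ednrb, an endothelin receptor gene of pigment cells among others, by 2.91 and 2.11 on the log2 scale.

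Of 33 tested genes from other glaucoma loci, 11 rose and 7 fell, then 11 rose and 4 fell (medians 0.20 and 0.14). Across all genes 22.1% rose and 17.5% fell, then 19.7% rose and 15.0% fell. Cdkn2b, a cell cycle inhibitor gene, rose by 6.21 and 5.86, from 9, 7 and 4 counts in the Sham libraries to 416, 541 and 485 counts in injured fl/fl and 384, 397 and 370 counts in injured iLECko libraries. Its neighbour Cdkn2a rose by 5.67 and 5.94, from 4, 4 and 1 counts to 78, 180 and 199 counts and 236, 146 and 178 counts. Pax6, the eye transcription factor of iris epithelium, fell by 1.82 and 1.30 on the log2 scale, and Six6 by 1.95 in the first comparison. Six6 was also below Sham (18.9 to 27.3 CPM) in every injured iLECko library (8.86 to 14.4 CPM). Asb10 fell by 1.56 in the second comparison, from 13 to 14 counts in Sham to 3 to 6 counts, and had 4, 7 and 5 counts in injured fl/fl libraries.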

How the data were processed

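Iris RNA was sequenced as single-end reads of 50 bases. Per the labels and methods, the authors aligned filtered reads with HISAT2 2.0.4 and Bowtie2 2.2.5 to mm10 and deposited estimated counts per gene, not normalized. The program that estimated them, and its use of strand, are not given in the sources used here. Between 9.83% and 10.3% of values were not whole, and counts were rounded. The genes and lists were chosen with earlier results of these data known. Groups came from the titles, which read ShamControl, WT and VR3ko, where 2 genotype tags of the VR3ko libraries read Vegfr4 and Vegfr5. The titles name neither the floxed alleles nor the alkali injury, which were taken from the paper. All 9 libraries were fitted together in edgeR 4.0.16 (R 4.3.3) with filterByExpr, TMM and the quasi-likelihood test, adjusted by Benjamini-Hochberg over 15010 genes. Standard errors came from the F statistic. Per list and comparison, at most 2 risers and 2 fallers with the largest changes were named. Likeness was the root-mean-square difference of centred log2(CPM + 1) profiles among genes of at least 1 CPM. Approximate TPM used the longest GENCODE M21 transcript, which 97.6% of genes had. Positions and promoters came from RefSeq by symbol, 10 promoters for the 9 genes since Cav1 has 2. Other genes were named as checks of labels, tissue or replicate 1 after their values were seen. DESeq2 1.42.0 served as an alternative. The paper itself used DESeq2 (1.4.5) with the same thresholds. Between the injured groups DESeq2 called 626 genes here, where edgeR called 156. The procedure was tested on simulated data. A combined table held identical values with the authors' group averages and was not used. P-values measure the spread between pools of irises.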

Additional observations from a re-analysis of the deposited data

How the results depend on the processing

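Directions and calls of Cav1, Optn, Abca1 and Efemp1 against Sham in the injured fl/fl group held in all 18 alternative fits, as did those of Cav1, Optn and Abca1 in the injured iLECko group. For injured fl/fl against Sham, leaving out single libraries gave log2 fold changes from -0.45 to 2.31 for Myoc, 0.45 to 6.07 for Angptl7, 0.52 to 0.63 for Cav2 and -0.28 to 0.056 for Cyp1b1. Between the injured groups, DESeq2 called 2 genes, Myoc (-3.25) and Efemp1 (0.71), against 4.53% of all genes, and leaving out single libraries gave 0 to 1 calls (0.00% to 1.85% of all genes), with ranges of -3.90 to -1.04 for Myoc, -4.06 to 1.55 for Angptl7, 0.61 to 0.88 for Efemp1, -0.33 to 0.30 for Abca1, -0.020 to 0.31 for Cyp1b1 and -0.031 to 0.10 for Cav2. The 1 call was Myoc without injured fl/fl replicate 2 (-3.80, adjusted p = 0.0473, 1.66% of all genes called) and Efemp1 without replicate 3 (0.88, adjusted p = 0.0354, 1.85% of all genes called). A Y-linked covariate turned Angptl7 (1.17), Abca1 (0.11) and Optn (-0.015) there, and for injured iLECko against Sham it turned Myoc (0.18) and Efemp1 (-0.35) and put Cav2 (0.57) under 1.5-fold. In that comparison Cav2 was also under 1.5-fold with upper quartile (0.57) and library size (0.49) scaling, Efemp1 turned with both (-0.024 and -0.11) and Cyp1b1 with library size alone (-0.075), which shifts the median of all genes to -0.12 (-0.16 for injured fl/fl against Sham). A fit of those 6 libraries alone called Myoc (-1.49) and Angptl7 (2.0). Leaving out single libraries gave -2.13 to -1.22 for Myoc, 1.60 to 2.45 for Angptl7, 0.54 to 0.67 for Cav2, -0.12 to 0.088 for Efemp1 and -0.094 to 0.12 for Cyp1b1. Same-numbered replicates did not deviate together (correlations from -0.35 to 0.18), and a replicate block lost the call of Angptl7 (4.16, adjusted p = 0.107) and no other. With a threshold of 2-fold, Efemp1 against Sham and Cav2 in injured iLECko irises were not called. DESeq2 gave no adjusted p for Angptl7. The causes were not tested. With 3 libraries a group and 8 to 17 counts in 6 of the 9 libraries, small changes of Angptl7 were not detectable.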
